A study of Homo sapiens with 6 samples.

Results

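The imprinted neighbours of IGF2 on human chromosome band 11p15 were followed in HEK293 cells, an adenovirus-transformed line from human embryonic kidney, given an siRNA against BAHD1 or a control siRNA. The 10 genes CDKN1C, PHLDA2, SLC22A18, KCNQ1, KCNQ1OT1, NAP1L4, TSSC4, CD81, H19 and OSBPL5 were chosen by name, and their probe sets were found through the platform annotation. They were read by 27 of the 54675 probe sets on the array. SLC22A18 was matched by its gene identifier, because the annotation carries its newer symbol SLC67A1. Of the 27, 25 were annotated with 1 gene, and the 2 probe sets of H19 carried the microRNA gene MIR675 as well. One group of 3 cultures received a BAHD1 siRNA and the other group of 3 a control siRNA, both by lipofection, and RNA was collected 72 h later. The cultures are labelled as biological replicates of a single line, and one array was hybridised per culture.

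Imprinted genes are expressed mainly from the chromosome inherited from one parent. On 11p15 they lie in adjoining domains. In the first, a control region that is methylated on the paternal copy lets the growth factor gene IGF2 be expressed from that copy and the noncoding RNA gene H19 from the maternal one. In the second, the long noncoding RNA KCNQ1OT1 is transcribed from the paternal copy and is known to silence CDKN1C, PHLDA2, SLC22A18 and KCNQ1 in cis, so that these are expressed mainly from the maternal copy. CD81, TSSC4, NAP1L4 and OSBPL5 are known as imprinted in mouse placenta, and less firmly so in human tissue. BAHD1 is a protein of repressive chromatin. The arrays do not tell the parental copies apart.

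Each array gave 1 linear signal per probe set, with array medians between 15.8 and 19.5. Comparisons were made on log2(signal + 1). A probe set was tested when its signal exceeded 17.9, the median of all values, on at least 3 of the 6 arrays. The BAHD1 probe set read 62.9, 55.7 and 46.7 in control cells and 36.6, 46.8 and 41.2 in BAHD1 siRNA cells. The groups just overlapped, the level left was 76.0% of control, and the log2 difference of -0.40 ± 0.19 was not called (limma, adjusted p = 0.251 in each of the 2 fits described next). Markers of the line were present, with 8 of 9 listed HEK293 markers carrying a probe set and all 8 of these tested, at mean signals from 32.1 for KRT8 to 3074 for VIM. Among these NEFL and NEFM rose by 0.37 ± 0.10 and 0.58 ± 0.15 and VIM fell by 0.32 ± 0.07 on the log2 scale. The adjusted p in limma's intensity-trend fit was 0.0457, 0.0473 and 0.0318. In the one-prior fit it was 0.230, 0.196 and 0.196, with no call. The tested probe sets of NEFL ran from 0.19 to 0.75. Over all genes, each by its brightest tested probe set, 5.52% were called in the intensity-trend fit. PAX2 had a difference of 0.65 ± 0.22 without overlap between groups and was not called (limma, adjusted p = 0.119). The part of these markers in the results below was not tested. Markers of other cells (blood, endothelium, fibroblast, liver and muscle) were tested in 2 of 9 cases, COL1A1 at 163 and PECAM1 at 17.4, and the others with a probe set had mean signals from 2.35 (CDH5) to 11.9 (CD3E). Of the array's control probe sets, those for spike-in RNAs of the bacterial genes dap, lys, phe and thr were compared. They read higher in the BAHD1 siRNA group in 24 of 24 cases (median log2 difference 0.58). Their part was likewise not tested.

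Groups were compared with limma over 27458 probe sets in 2 ways. Both fits estimate a variance for each probe set and draw it toward an expected variance. In the one-prior fit the expected variance is common to all probe sets. In the intensity-trend fit it follows the mean signal, and probe sets with outlying variances are treated robustly. An adjusted p under 0.05 was required for a call. Of all tested probe sets, 0.00% were called by the one-prior fit, where 17.6% had an unadjusted p under 0.05, and 4.45% in the intensity-trend fit (2.17% higher and 2.28% lower).

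Of the 27 member probe sets 14 were bright enough to be tested, and they covered 9 of the 10 genes. H19 had none. In the intensity-trend fit 2 of the 14 were called, 1 for PHLDA2 and 1 for CDKN1C, and both were higher in BAHD1 siRNA cells. The one-prior fit made 0 calls among them and gave 5 an unadjusted p under 0.05. Its adjusted p for the 12 that neither fit called ran from 0.266 to 0.794, and those given below for these 12 are from the intensity-trend fit unless stated. In 6 of the 14 the groups did not overlap, 4 higher and 2 lower, whereas 25.6% of all tested probe sets did not overlap (13.4% higher and 12.2% lower). In sign, 10 of the 14 were higher and 4 lower, and 52.0% of all tested probe sets were higher. With each gene represented by its brightest tested probe set, 7 genes were higher and 2 lower, with a median log2 difference of 0.24. Over all 12529 genes represented in this way the median was 0.02 and 54.4% were higher. The 0.24 is the value of OSBPL5 on 223464_at, which had an SE of 0.35. With the mean of each gene's tested probe sets the median of the member genes was 0.17. None of the 14 had been kept through the arrays of 1 group alone.

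**Figure D1:**
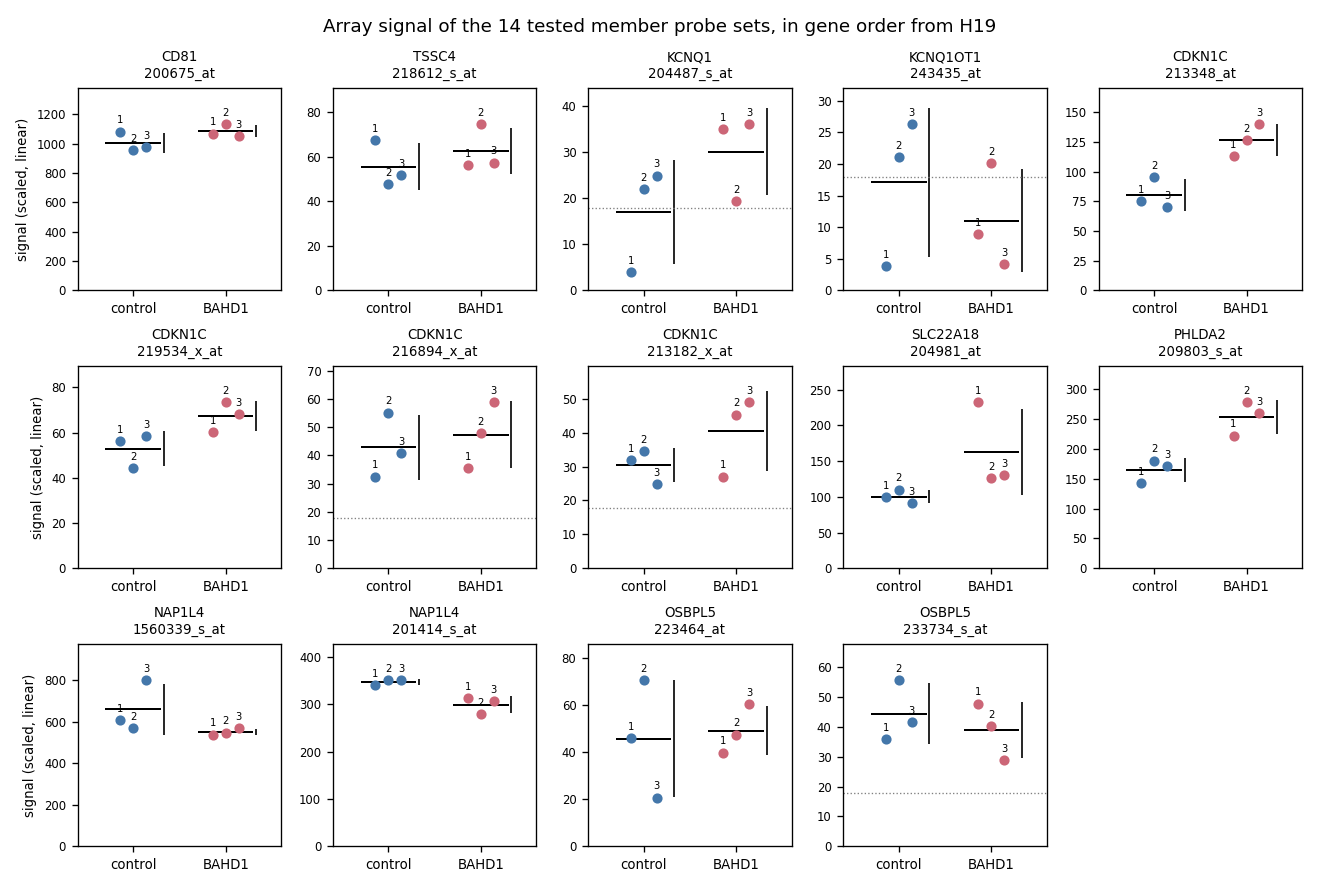
Signal of the 14 tested member probe sets on a linear scale, 1 panel each, ordered along the chromosome starting from the H19 end. Points are single arrays with their replicate number, horizontal lines are group means, vertical lines are 1 SD (n = 3 per group), and the dotted line in dim panels is the filter level of 17.9. The groups separate fully for CDKN1C (213348_at and 219534_x_at), SLC22A18, PHLDA2 and both probe sets of NAP1L4.

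CDKN1C encodes p57, an inhibitor of cyclin-dependent kinases that holds back the cell cycle. Its brightest probe set, 213348_at, had signals of 75.2, 95.3 and 70.3 in control cells and 112.8, 126.5 and 140.0 in BAHD1 siRNA cells. The lowest BAHD1 siRNA value thus lay above the highest control value. CDKN1C rose by 0.66 ± 0.15 on this probe set (log2 difference ± SE, 3 arrays per group), a fold of 1.58, with an adjusted p of 0.0277 in limma's intensity-trend fit and 0.157 in the one-prior fit. The exact two-sided permutation p was 0.1, the smallest that 3 against 3 can give. That call was lost without either of 2 controls, replicate 1 (limma, adjusted p = 0.0877) and replicate 3 (0.0606). Leaving out replicate 2 or 3 of BAHD1 siRNA ended it as well (0.0924 and 0.120), while the difference stayed between 0.57 and 0.78. It was also lost when dim probe sets were not filtered out (limma, adjusted p = 0.0651).

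The 3 further probe sets tested for CDKN1C were dimmer and showed smaller differences. Their names end in x_at, which marks probes that may also bind other transcripts. On 219534_x_at the signals were 56.2, 44.2 and 58.3 in control cells and 60.2, 73.5 and 68.3 in BAHD1 siRNA cells. These groups did not overlap, but the gap between them was narrow and the log2 difference of 0.35 ± 0.17 was not called (limma, adjusted p = 0.263). On 213182_x_at the control values of 31.8, 34.5 and 24.9 overlapped with the BAHD1 siRNA values of 27.0, 45.3 and 49.0, and the difference was 0.37 ± 0.26. On 216894_x_at it was 0.14 ± 0.24, and its sign turned without control replicate 1 (-0.033) or BAHD1 siRNA replicate 3 (-0.024). The fifth, 219533_at, had a mean signal of 1.9 and was not tested. All 4 tested probe sets of the gene therefore had a positive difference over 6 arrays, from 0.14 to 0.66, and 1 of the 4 was called.

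PHLDA2 encodes a small protein with a pleckstrin homology domain that is known to restrain placental growth. On 209803_s_at it read 143.0, 180.3 and 171.7 in control cells and 222.3, 278.6 and 260.1 in BAHD1 siRNA cells. Every BAHD1 siRNA array was above every control array, with a clear gap. PHLDA2 rose by 0.62 ± 0.12 (log2 difference ± SE), a fold of 1.53, with an adjusted p of 0.0154 in limma's intensity-trend fit and 0.151 in the one-prior fit (exact two-sided permutation p = 0.1). Leaving out the first control ended the call (limma, adjusted p = 0.0554), as did leaving out replicate 2 or 3 of BAHD1 siRNA (0.0690 and 0.0631), and the difference ran from 0.52 to 0.71 over the 6 arrays left out in turn. Its other probe sets, 209802_at and 229494_s_at, had mean signals of 10.1 and 2.8 and were not tested. On 209802_at the values were 23.7, 9.0 and 10.0 in control cells and 7.5, 6.3 and 4.3 in BAHD1 siRNA cells. These were lower without overlap, but near the floor of the scale. On 229494_s_at the mean was also lower, 1.9 in BAHD1 siRNA cells against 3.7 in control cells, with overlap. Both thus had the opposite sign to 209803_s_at.

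SLC22A18 encodes a membrane protein of the organic cation transporter type and lies between CDKN1C and PHLDA2 in gene order. Its signals were 99.5, 110.1 and 91.6 in control cells and 232.6, 126.6 and 130.0 in BAHD1 siRNA cells. All 3 BAHD1 siRNA values exceeded the controls, and replicate 1 stood far above the rest. The log2 difference was 0.64 ± 0.20, a fold of 1.56, which was not called (limma, adjusted p = 0.0845 in the intensity-trend fit and 0.266 in the one-prior fit; exact two-sided permutation p = 0.1). Without BAHD1 siRNA replicate 1 it was 0.35 ± 0.14 (adjusted p = 0.165). The order of the BAHD1 siRNA arrays was not shared among these neighbours, since replicate 1 was the highest for SLC22A18 and the lowest for CDKN1C (213348_at) and PHLDA2.

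KCNQ1OT1, the noncoding RNA of the second domain, was near the floor of the scale on all of its 5 probe sets. The 4 that were not tested had mean signals from 4.7 to 8.1. Among them 243428_at read 5.9, 6.0 and 8.0 in control cells and 1.1, 2.5 and 4.6 in BAHD1 siRNA cells, lower without overlap, and the groups overlapped on the other 3. On the tested one, 243435_at, the signals were 3.8, 21.1 and 26.3 in control cells and 8.9, 20.1 and 4.1 in BAHD1 siRNA cells. Both groups spread over the same range, with a log2 difference of -0.48 ± 0.79 (limma, adjusted p = 0.772) that came to 0.020 without BAHD1 siRNA replicate 3. These signals were too dim to give KCNQ1OT1 a direction.

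KCNQ1 encodes the pore-forming subunit of a voltage-gated potassium channel, and KCNQ1OT1 is transcribed from within it on the opposite strand. On 204487_s_at it read 4.0, 22.0 and 24.9 in control cells and 35.0, 19.3 and 36.1 in BAHD1 siRNA cells. The highest values came from BAHD1 siRNA arrays, but the groups overlapped. The log2 difference of 1.06 ± 0.55 was the largest among the tested member probe sets and had one of the widest errors (limma, adjusted p = 0.297), and it was 0.30 without control replicate 1. The second probe set, 211217_s_at, had a mean signal of 6.8.

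H19, the noncoding RNA of the first domain, was measured by 2 probe sets that share their annotation with MIR675, a microRNA gene inside the H19 transcript, and their signals are therefore reported as joint. The RNA was at the low end of the scale in every array. On 224646_x_at the signals were 1.9, 8.7 and 6.5 in control cells and 16.8, 16.6 and 14.2 in BAHD1 siRNA cells. The BAHD1 siRNA values were all above the control values, yet all 6 lay under the filter level of 17.9, and no test was made. On 224997_x_at the groups overlapped, at 13.1, 1.2 and 1.3 in control cells and 6.1, 3.6 and 12.1 in BAHD1 siRNA cells. The RefSeq sequences of the mature products of MIR675 (GRCh38.p14, minus strand) are shown because the annotation names this gene beside H19. No signal of the 2 probe sets is assigned to the mature products. The seed, bases 2 to 8, is in capitals and differs between the arms.
hsa-miR-675-5p (chr11:1996800-1996822): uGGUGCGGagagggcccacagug
hsa-miR-675-3p (chr11:1996768-1996787): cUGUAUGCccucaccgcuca

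IGF2 itself shares its probe sets with the INS-IGF2 readthrough gene. On 202409_at, tested alone among its 3 probe sets, the signals were 11.3, 27.7 and 22.8 in control cells and 34.1, 46.8 and 35.1 in BAHD1 siRNA cells. They did not overlap, and the log2 difference of 0.95 ± 0.32 was not called (limma, intensity-trend adjusted p = 0.115). The other 2 had signals from 0.7 to 3.0.

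NAP1L4 encodes a histone chaperone of the nucleosome assembly protein family and follows PHLDA2 in gene order. On 201414_s_at the signals were 340.2, 350.7 and 350.4 in control cells and 312.0, 278.3 and 305.7 in BAHD1 siRNA cells. Every BAHD1 siRNA array was below the tight control group. On 1560339_s_at they were 607.5, 569.3 and 800.9 against 537.4, 548.2 and 568.2, where the groups only just separated and control replicate 3 was far above the rest. The log2 differences were -0.22 ± 0.08 and -0.24 ± 0.11, and neither was called (limma's intensity-trend fit, adjusted p = 0.149 and 0.214). Without control replicate 3 the second was -0.09. The 3 untested probe sets of NAP1L4 had mean signals from 1.2 to 10.9.

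CD81, a tetraspanin of the cell surface, had signals of 1083.0, 957.5 and 975.2 in control cells and 1069.8, 1134.3 and 1053.8 in BAHD1 siRNA cells. The groups overlapped, and the log2 difference of 0.11 ± 0.07 was not called (limma, adjusted p = 0.385). With the array medians centred it was -0.025, but that step also moved the median of all tested probe sets from 0.01 to -0.13. As the groups overlapped and neither fit made a call, no direction is given for CD81.

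TSSC4, whose product takes part in the assembly of the spliceosomal U5 particle, read 67.4, 47.6 and 51.7 in control cells and 56.1, 74.7 and 57.3 in BAHD1 siRNA cells. These groups overlapped as well (log2 difference 0.17 ± 0.19; limma, adjusted p = 0.631).

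OSBPL5 encodes a lipid transfer protein of the oxysterol-binding family at membrane contact sites. Its probe sets disagreed in sign. On 223464_at the signals were 46.1, 70.8 and 20.7 in control cells and 39.9, 47.5 and 60.5 in BAHD1 siRNA cells, a log2 difference of 0.24 ± 0.35. On 233734_s_at they were 35.8, 55.6 and 41.5 against 47.7, 40.1 and 28.9, a difference of -0.19 ± 0.24. Both groups overlapped on both probe sets, and each difference turned its sign when 1 array was left out (-0.23 on the first without control replicate 3, and 0.0055 on the second without BAHD1 siRNA replicate 3).

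**Figure D2:**
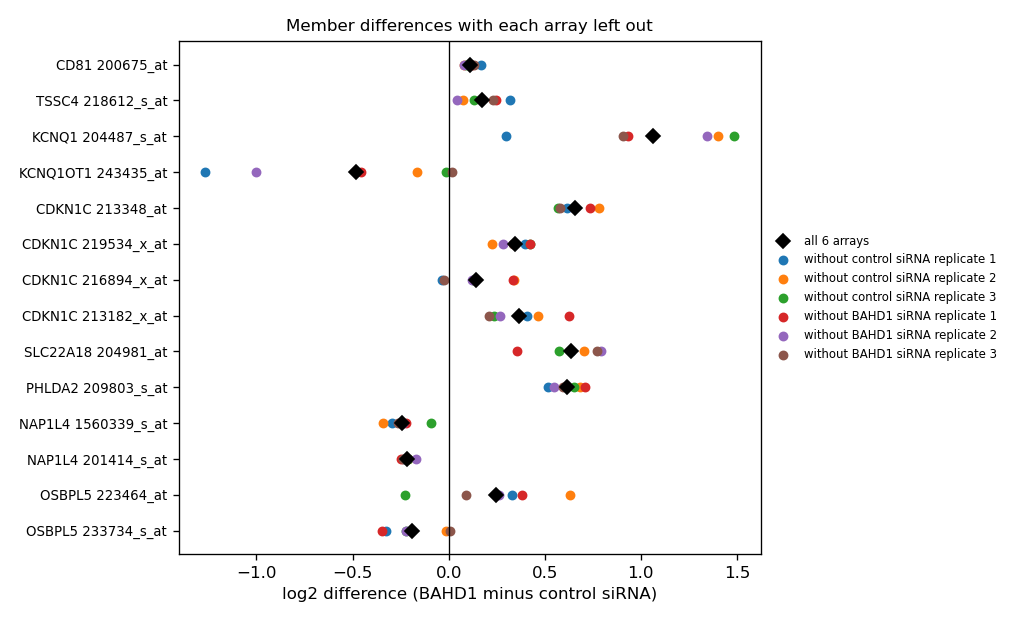
Log2 difference (BAHD1 siRNA minus control siRNA, horizontal axis) of each tested member probe set with all 6 arrays (diamonds) and with each array left out (coloured points). CDKN1C on 213348_at and PHLDA2 stayed above 0.5 in all 6 cases, whereas KCNQ1 ran from 0.30 to 1.49, KCNQ1OT1 from -1.27 to 0.020 and OSBPL5 on 223464_at from -0.23 to 0.63.

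In gene order the differences varied among neighbours, from 1.06 ± 0.55 for KCNQ1 and -0.48 ± 0.79 for KCNQ1OT1, both dim and with wide errors, to smaller values with narrower errors. CDKN1C, SLC22A18 and PHLDA2 are consecutive among the tested genes. On their brightest probe sets they had log2 differences of 0.66 ± 0.15, 0.64 ± 0.20 and 0.62 ± 0.12. The other tested probe sets of CDKN1C had 0.35, 0.37 and 0.14. SLC22A18, which was not called, had 0.35 without BAHD1 siRNA replicate 1. NAP1L4, the next gene, had -0.24 on its brightest probe set. CARS1, a cysteinyl-tRNA synthetase gene beyond NAP1L4, was at -0.03 on its brightest probe set and at -0.01 and -0.04 on the 2 others tested. The change of PHLDA2 relative to NAP1L4, taken within each array, was 0.86 on the log2 scale, with no overlap between groups (two-sided exact permutation p = 0.1, which is the floor; 0.4 adjusted over the 4 neighbouring pairs compared). For CDKN1C relative to SLC22A18, SLC22A18 relative to PHLDA2 and NAP1L4 relative to CARS1 this quantity was 0.02, 0.02 and -0.21 (exact permutation p = 1.0, 1.0 and 0.6). The pairs were chosen after the values had been seen.

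Among other genes of the imprinted domains, 5 of 16 listed were bright enough, 2 higher and 3 lower, with a median log2 difference of -0.03 and 0 called in either fit (4.45% of all tested probe sets were called in the intensity-trend fit). Besides IGF2 and CARS1 these were MRPL23 at -0.06 ± 0.09 (0.51 on its other tested probe set), ZNF195 at -0.04 ± 0.09 and TSPAN32 at 0.10 ± 0.44. Of the 50 genes that flank the span, 25 on each side in gene order, 14 had a probe set and 8 were tested, which include MRPL23 and ZNF195. Of the 8, 5 were higher and 3 lower, with a median of 0.09 and none called by either fit. SYT8, a dim synaptotagmin gene on the H19 side, had 1.86 ± 0.73 (limma, adjusted p = 0.165), the pseudogene OR7E12P 0.44 ± 0.17 (0.155), the troponin gene TNNT3 0.24 ± 0.30 (0.701), and the lysosomal protease gene CTSD -0.15 ± 0.15.

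**Figure D3:**
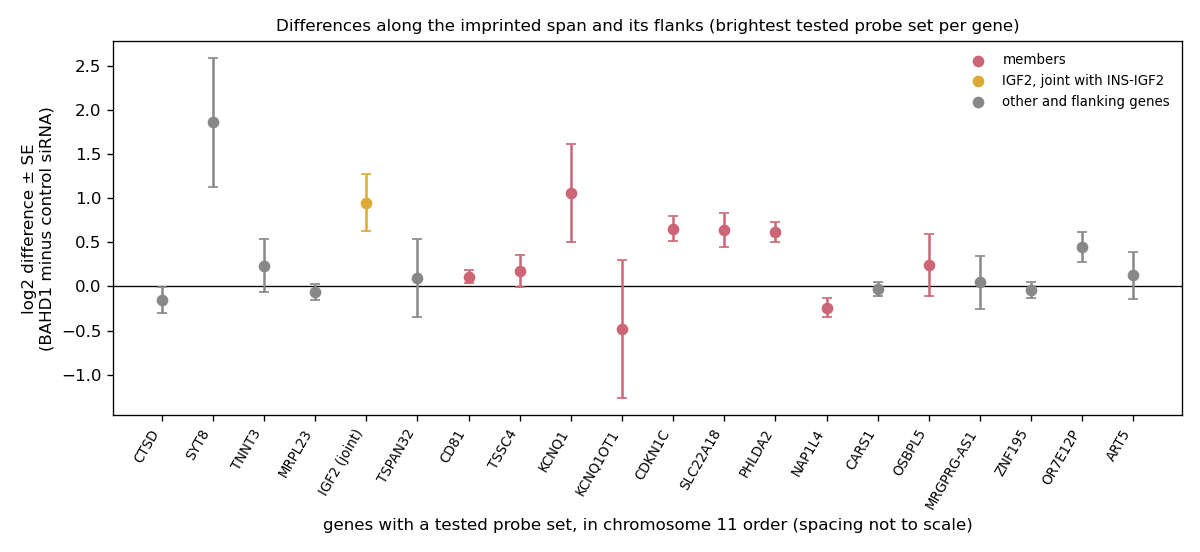
Log2 difference ± SE (intensity-trend fit, n = 3 per group) of the members, the other listed genes of the imprinted domains and the flanking genes. Genes are in chromosome order with even spacing. Only those with a tested probe set are drawn, and within the span only listed genes were looked up. Each gene is shown by its brightest tested probe set alone. On these CDKN1C, SLC22A18 and PHLDA2 lie side by side between 0.62 and 0.66, and NAP1L4 beside them lies at -0.24. The dimmer tested probe sets of CDKN1C, which had smaller differences, are not drawn.

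Promoter sequences of 300 bases around a start site (RefSeq, GRCh38.p14) were matched for 5 of the 10 genes, namely H19, TSSC4, SLC22A18, NAP1L4 and OSBPL5. The first listed start of SLC22A18 and of NAP1L4 is shown, since these genes lie on either side of PHLDA2 and their differences had opposite signs. Neither gene was called in either fit. Whether promoter sequence bears on these differences was not tested. Capitals mark GGGCGG on either strand, the core of the GC box, and each motif was counted alone, whether or not it overlapped with another.
SLC22A18, plus strand, chr11:2902028-2902327: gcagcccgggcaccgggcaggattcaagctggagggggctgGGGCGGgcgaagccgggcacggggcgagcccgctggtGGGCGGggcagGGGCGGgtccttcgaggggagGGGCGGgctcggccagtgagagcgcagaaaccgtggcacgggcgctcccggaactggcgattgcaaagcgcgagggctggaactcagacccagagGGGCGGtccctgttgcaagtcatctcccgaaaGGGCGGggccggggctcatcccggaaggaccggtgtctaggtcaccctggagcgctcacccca
NAP1L4, minus strand, chr11:2992280-2992579: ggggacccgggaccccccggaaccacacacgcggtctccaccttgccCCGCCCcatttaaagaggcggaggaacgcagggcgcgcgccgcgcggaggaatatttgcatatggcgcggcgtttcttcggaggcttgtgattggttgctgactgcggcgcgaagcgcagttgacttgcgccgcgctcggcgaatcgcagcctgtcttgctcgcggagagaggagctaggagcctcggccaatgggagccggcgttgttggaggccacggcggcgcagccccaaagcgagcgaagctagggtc

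Both windows are rich in CpG. That of SLC22A18 holds 28 CpG and is 72.3% G or C, and that of NAP1L4 holds 37 CpG and is 67.0% G or C, against medians of 14 and 58.7% over 34796 RefSeq promoter windows. GGGCGG occurs 6 times in the SLC22A18 window and 1 time in that of NAP1L4, and 44.9% of all windows hold it at least 1 time. CCAAT, searched on both strands, occurs 2 times in the NAP1L4 window and 0 times in that of SLC22A18, and 34.6% of all windows hold it. These counts depend on the start chosen: the GC box letters occur 4 times at the other listed start of SLC22A18 and 4, 3 and 0 times at the 3 other starts of NAP1L4. CCAAT occurs 1 time at that start of SLC22A18 and 1, 0 and 0 times at those of NAP1L4. TATAAA was in none of these windows, and in 11.6% of all windows. The H19 window has 6 CpG, 57.7% G or C, and none of the 3 motifs.

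The brightness of a probe set bears on these comparisons. Tested probe sets were split by mean signal into 4 groups of like size. In the dimmest group 60.9% were higher in BAHD1 siRNA cells, and in the brightest 42.1%, with median log2 differences of 0.11 and -0.04. KCNQ1 and KCNQ1OT1 were in the dimmest group, CDKN1C (213348_at), SLC22A18 and PHLDA2 in the third, where the median was -0.005, and NAP1L4 and CD81 in the brightest. A difference above that of CDKN1C on 213348_at was seen in 3.61% of all tested probe sets, above that of SLC22A18 in 3.83% and above that of PHLDA2 in 4.12%.

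**Figure D4:**
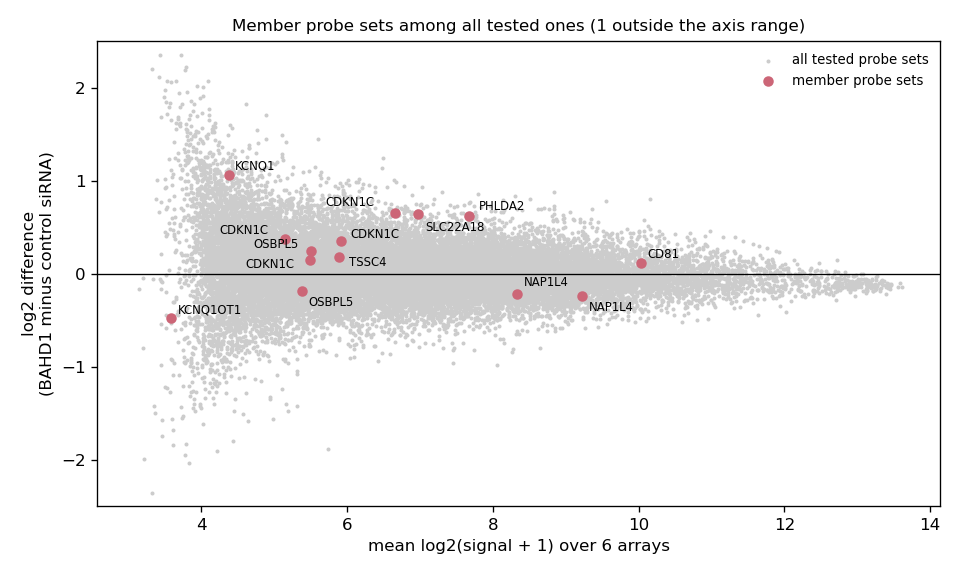
Log2 difference (vertical axis) against mean log2(signal + 1) over 6 arrays for all 27458 tested probe sets (grey, 1 of them outside the axis range) and the 14 member probe sets (red). CDKN1C (213348_at), SLC22A18 and PHLDA2 lie near the upper edge at medium signal, KCNQ1 and KCNQ1OT1 in the wide dim part, and CD81 and NAP1L4 in the narrow bright part.

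The partners of p57 in the cell cycle were taken as a list of 15 genes, the other CIP/KIP inhibitors, the cyclins and kinases they act on, and SKP2 and CKS1B of the ubiquitin ligase that marks p27 for degradation. All 15 were tested. Of these 5 were higher and 10 lower, with a median log2 difference of -0.08 and 0 called in either fit. Over all represented genes 54.4% were higher and 5.52% were called in the intensity-trend fit. The 15 genes had mean signals from 95.65 to 2707. In the third and the brightest group of tested probe sets 49.0% and 42.1% were higher. This list was not tested as a whole. CDKN1A (p21) and CDKN1B (p27), the paralogs of CDKN1C, had differences of -0.02 ± 0.09 and 0.10 ± 0.08. The members with the smallest p-values were the kinase genes CDK1 (-0.16 ± 0.07), CDK2 (0.15 ± 0.07) and CDK6 (-0.15 ± 0.08) and the ubiquitin ligase gene SKP2 (-0.12 ± 0.07), at adjusted p from 0.202 to 0.367 in limma's intensity-trend fit. For CDK2 and CDK6 the other tested probe sets reached the opposite sign (-0.14 and 0.08).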

How the data were processed

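One biotin-labelled target per sample was hybridised to one array, per the labels' protocols, in 3 control siRNA and 3 BAHD1 siRNA samples. The deposited table gives linear intensity values, 1 for each probe set on each array. Per the submitters' processing notes the tools were GCOS and GCRMA, whose roles are not given in the sources used here. Each column's mean without its highest and lowest 2% was 100, so the authors' values were taken as scaled, linear signal.

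Samples were grouped by title. Control probe sets, 62 of 54675, were left out. Values were taken as log2(value + 1), filtered (over 17.9 on at least 3 of 6 arrays, 27458 kept) and compared with limma 3.58.1 in R 4.3.3 (lmFit and eBayes, with one prior or with trend and robust), with Benjamini-Hochberg adjustment over all tested probe sets at 0.05. Exact two-sided permutation tests were added for single values. Depth in reads does not apply, and the number of arrays limits the precision. Tests were checked on simulated data from the 27458 probe sets. Of simulated log2 changes of 0.5, 1 and 2, 1.04%, 47.6% and 85.9% were called by the one-prior fit and 41.1%, 74.8% and 96.8% by the intensity-trend fit. The simulated noise was normal, and its spread was taken from the intensity-trend fit to these data. That setting favours the intensity-trend fit, so these shares cannot be used to choose between the 2 fits. Each simulation put a change into a small, fixed number of probe sets. The shares called depend on that number, so they need not hold for these data.

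Members and lists were chosen with earlier results of these data known. All member probe sets are accounted for. From each list the 4 tested genes with the smallest p are named, with IGF2 and BAHD1, and CDKN1A, CDKN1B, TSPAN32 and the markers beyond that rule were added after their values were seen. Genes were named from probe sets with 1 gene (23546 of those tested, with 1110 carrying several and 2802 none), except H19 and IGF2. RefSeq's gene table (GRCh38.p14) served for symbols and gene order. The alternatives were a replicate block, other filters, quantile normalisation, centred medians, array weights, log2(value + 16), a threshold of 0.1, the mean of a gene's probe sets, and leaving out each array.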

Additional observations from a re-analysis of the deposited data

How the results depend on the processing

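The replicate block and the filters leave a log2 difference as it is, so only 4 settings (quantile normalisation, centred medians, array weights and log2(value + 16)) and the 6 arrays left out could turn its sign. Under these, 9 of the 14 tested member probe sets kept their sign and 5 did not. CD81 was at -0.025 with centred array medians, a step that moved the median of all tested probe sets from 0.01 to -0.13. This value is to be read against that shift, as are PHLDA2 at 0.48, CDKN1C (213348_at) at 0.52 and NAP1L4 at -0.38 and -0.36. The other 4 turned only when an array was left out: CDKN1C on 216894_x_at ran from -0.033 to 0.34, KCNQ1OT1 from -1.27 to 0.020, and OSBPL5 from -0.23 to 0.63 on 223464_at and from -0.35 to 0.0055 on 233734_s_at. The intensity-trend fit called 2 member probe sets, and 0 to 2 with an array left out. It called 1 without a filter, where 54613 probe sets share the adjustment. The fit with one prior called 0, and 2 under the stricter filter, which kept 13876 probe sets and 6 of the members. It called 1147 of all probe sets there, against 0. The 2 members were PHLDA2 and CDKN1C (adjusted p = 0.0217 and 0.0240). CDKN1C passed that filter, at 99.9, through its BAHD1 siRNA arrays alone. The median log2 difference of the member genes, 0.24, was 0.62 under the stricter filter, which leaves fewer genes. It was 0.11 with centred medians, under the shift given above, and 0.17 with the mean of each gene's tested probe sets. With an array left out it ran from 0.13 to 0.63.

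With the replicate block, 3 member probe sets were called in the intensity-trend fit, SLC22A18 being the added one (adjusted p = 0.0493), and 1629 of all probe sets in place of 1221 (398 without a filter, 1622 with the stricter one, 177 to 1174 with an array left out). The genes named from lists were not rerun under the alternatives. Arrays with the same number shared no deviation (correlations of 0.01, 0.01 and 0.02), so the numbers were not taken as pairs. Dim signals limit KCNQ1, KCNQ1OT1 and H19, and 3 arrays per group cannot give an exact p below 0.1.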

Other observations

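Factors that maintain imprints were read by 22 tested genes of 27 listed, of which 8 were higher and 14 lower in BAHD1 siRNA cells, with a median log2 difference of -0.03. In limma's intensity-trend fit 1 rose and 1 fell, beside 5.52% called over all genes represented by their brightest tested probe set. Of all those genes 54.4% were higher. The 22 had mean signals from 66.9 to 1917, and the shares varied with brightness. In the third and the brightest group of tested probe sets 49.0% and 42.1% were higher. The intensity-trend fit called 5.77% and 9.35% there. The list as a whole was not tested. DNMT1, which copies DNA methylation after replication, rose by 0.35 ± 0.09 (log2 difference ± SE, 3 arrays per group; adjusted p = 0.0395), and TET1, an enzyme that oxidises methylcytosine, was at -0.31 ± 0.08 (adjusted p = 0.0431), although another of its probe sets reached 0.13. SMCHD1, a silencing factor of imprinted clusters and the inactive X, was at -0.33 ± 0.10 (up to 0.21 on its other tested probe sets), and UHRF1, which guides DNMT1 to replicated DNA, at -0.20 ± 0.06, and neither passed. None of the 22 was called in the one-prior fit.

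Paralogs and partners of the other members were tested in 26 of 34 cases, 16 higher and 10 lower, with a median of 0.06. In limma's intensity-trend fit 2 were called, both lower. Over all represented genes 5.52% were called in that fit and 54.4% were higher, and this list was not tested as a whole either. PTGFRN, a partner of CD81 in the membrane, fell by 0.31 (adjusted p = 0.0352), and its probe sets lay between -0.33 and -0.31. OSBPL8, a relative of OSBPL5, was at -0.31 ± 0.07 (adjusted p = 0.0355), but another of its probe sets was at 0.004. OSBPL11 had 0.28 ± 0.09 and the tetraspanin gene CD63 had -0.23 ± 0.07, and neither passed in limma's intensity-trend fit. The fit with one prior called none of these.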
